A study of Mus musculus with 30 samples.

Results

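The genes that make melanin, the pigment of hair and skin, were followed in mouse back skin inflamed with the phorbol ester TPA. The set was 10 genes: the melanin enzymes Tyr, Tyrp1 and Dct, the melanosome genes Mlana, Slc45a2, Slc24a5, Oca2 and Gpr143, the pigment hormone receptor Mc1r and the transcription factor Mitf. Every probe set whose gene symbol was 1 of these was taken from the array table, which gave 16 of 45037 probe sets for 9 of the 10 genes. No probe set carried the symbol Slc24a5, so it has no expression value here. A single Tyr probe set fell below the filter on low signal, which left 15 member probe sets among the 36029 tested.

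The 30 arrays, 3 to a group, came from female 129–C57BL/6 mice aged 8 to 12 weeks, either wild-type (WT) or lacking the chemokine-scavenging receptor D6 (D6-deficient, labelled KO). Their shaved back skin received TPA at 50 µM on 3 occasions a day apart, and whole skin was taken 1, 2, 4 or 6 days after the last. Day 0 mice of each genotype received acetone alone, although their labels also call them untreated. Each day held different animals, so every change over time is a difference between animals. The D6 gene (array symbol Ccbp2) matched the genotype labels at probe set 1422112_at, where the WT arrays lay between 4.15 and 5.76 and the D6-deficient arrays between 3.30 and 3.86 in log2 intensity. At the other 2 Ccbp2 probe sets the genotypes overlapped, and where the probes lie relative to the deleted part is not given in the sources used here.

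Melanin is made in melanocytes, inside organelles called melanosomes, and in mice most of it goes into the growing hair shaft. Tyrosinase, the product of Tyr, oxidises tyrosine and is rate-limiting, and the enzymes encoded by Tyrp1 and Dct act further along the pathway. Follicle melanocytes make pigment only while the follicle is in its growth phase, anagen, and MITF is the transcription factor that activates the pigment enzyme genes through a DNA element known as the M-box.

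The promoters of the 3 enzyme genes are shown because their mRNAs moved together and each holds the core of that element. Sequences are from RefSeq (GRCm38.p6), the 250 bases before the annotated start, written 5′ to 3′ on the gene's strand. Capitals mark TCATGTG or its reverse complement CACATGA. Tyr lies on the minus strand at chr7:87493513-87493762, Tyrp1 on the plus strand at chr4:80833963-80834212, and Dct on the minus strand at chr14:118052247-118052496.
Tyr: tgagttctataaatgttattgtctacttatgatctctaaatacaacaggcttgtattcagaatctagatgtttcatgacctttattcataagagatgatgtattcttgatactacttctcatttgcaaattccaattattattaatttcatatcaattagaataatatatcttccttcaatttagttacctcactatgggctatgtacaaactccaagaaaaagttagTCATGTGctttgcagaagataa
Tyrp1: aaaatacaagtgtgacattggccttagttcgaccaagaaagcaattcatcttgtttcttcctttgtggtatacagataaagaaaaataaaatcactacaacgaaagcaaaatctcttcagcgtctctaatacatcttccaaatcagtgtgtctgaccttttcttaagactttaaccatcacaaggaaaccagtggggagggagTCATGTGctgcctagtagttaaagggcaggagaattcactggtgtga
Dct: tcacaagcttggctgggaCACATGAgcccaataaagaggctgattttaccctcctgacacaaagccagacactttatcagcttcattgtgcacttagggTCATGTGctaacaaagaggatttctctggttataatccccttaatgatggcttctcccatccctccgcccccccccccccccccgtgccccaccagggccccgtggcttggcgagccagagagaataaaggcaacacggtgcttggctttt

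The core began 22 bases before the start of Tyr, 47 before that of Tyrp1, and 151 and 232 before that of Dct. In Tyr and Tyrp1 it stood within the full M-box of 11 letters, which 7 of all 32851 promoter windows (0.0213%) held on either strand. The core itself was found in 3.77% of the windows, each of 300 bases running to 50 bases past the start, and the shorter CATGTG, or CACATG on the other strand, in 14.2%. Of the 7 members with a window in the table, 5 held the core: the 3 enzyme genes, Mc1r and Slc24a5. The sites of the latter pair are shown with a few flanking bases for comparison. That of Mc1r lies at chr8:123407018-123407048 and that of Slc24a5 at chr2:125068102-125068126.
Mc1r: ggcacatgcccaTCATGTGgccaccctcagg
Slc24a5: aaggagactgctCACATGAttcagc
Oca2 held only the shorter CACATG, 186 bases before its start, and the 3 windows of Mitf held neither. A match to these letters describes the sequence and was not tested as a binding site.

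**Figure D1:**
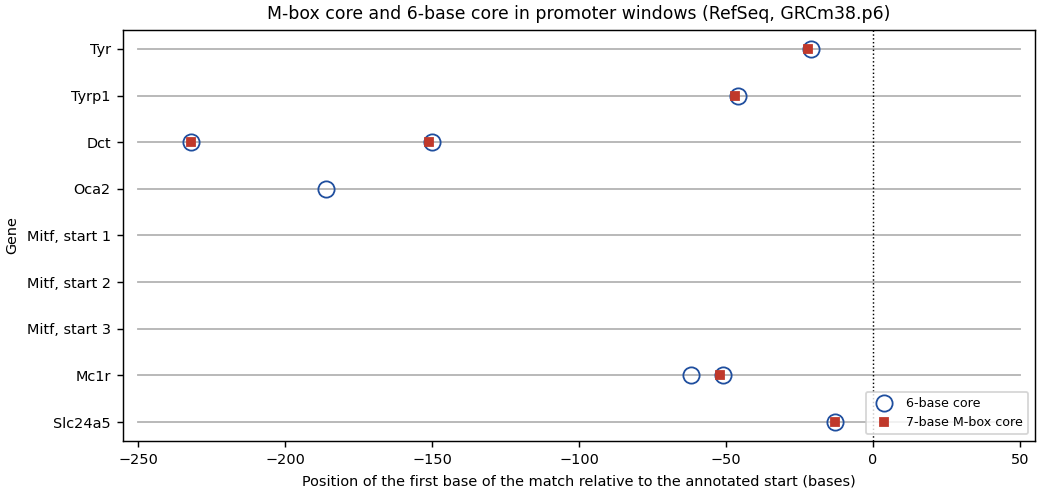
Position of the M-box core (red squares) and of the shorter core of 6 bases (blue circles) in the promoter windows of 7 pigment genes, in bases from the annotated start (dotted line). The grey lines span each window, and the core lies 22 bases before the start in Tyr and 47 before it in Tyrp1.

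The group means of the pigment genes other than Mitf were highest on days 1 and 6 in both genotypes. On day 1 in WT skin 9 of 15 member probe sets rose past the test (limma, adjusted p under 0.05 over all tested probe sets) and 1 fell, where 11.4% of all tested probe sets rose and 12.7% fell. On day 6 in WT skin 10 rose (10.2% of all) and 2 fell (11.9% of all). In D6-deficient skin 12 rose on day 1 (18.2% of all) and 1 fell (18.1% of all), and 13 rose on day 6 with none lower, where 31.7% of all passed in either direction. The median change of the 15 probe sets and that of all tested probe sets were 1.12 and -0.01 on day 1 and 1.62 and 0.00 on day 6 in WT skin, on the log2 scale, and 1.87 and 0.02 and 2.20 and -0.01 in D6-deficient skin. More than 3-fold higher as well as past the test were 7 and 8 in WT skin on days 1 and 6 (0.930% and 0.799% of all) and 9 and 9 in D6-deficient skin (1.06% and 0.888% of all). All 3 arrays lay above all 3 of day 0 for 11 and 12 of the 15 in WT skin (19.3% and 18.2% of all) and for 13 and 11 in D6-deficient skin (25.8% and 18.8% of all). In whole skin, fewer or more melanocytes and less or more RNA per melanocyte cannot be told apart. The WT and the D6-deficient changes each use their own day 0 arrays, and within a genotype all days share them.

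**Figure D2:**
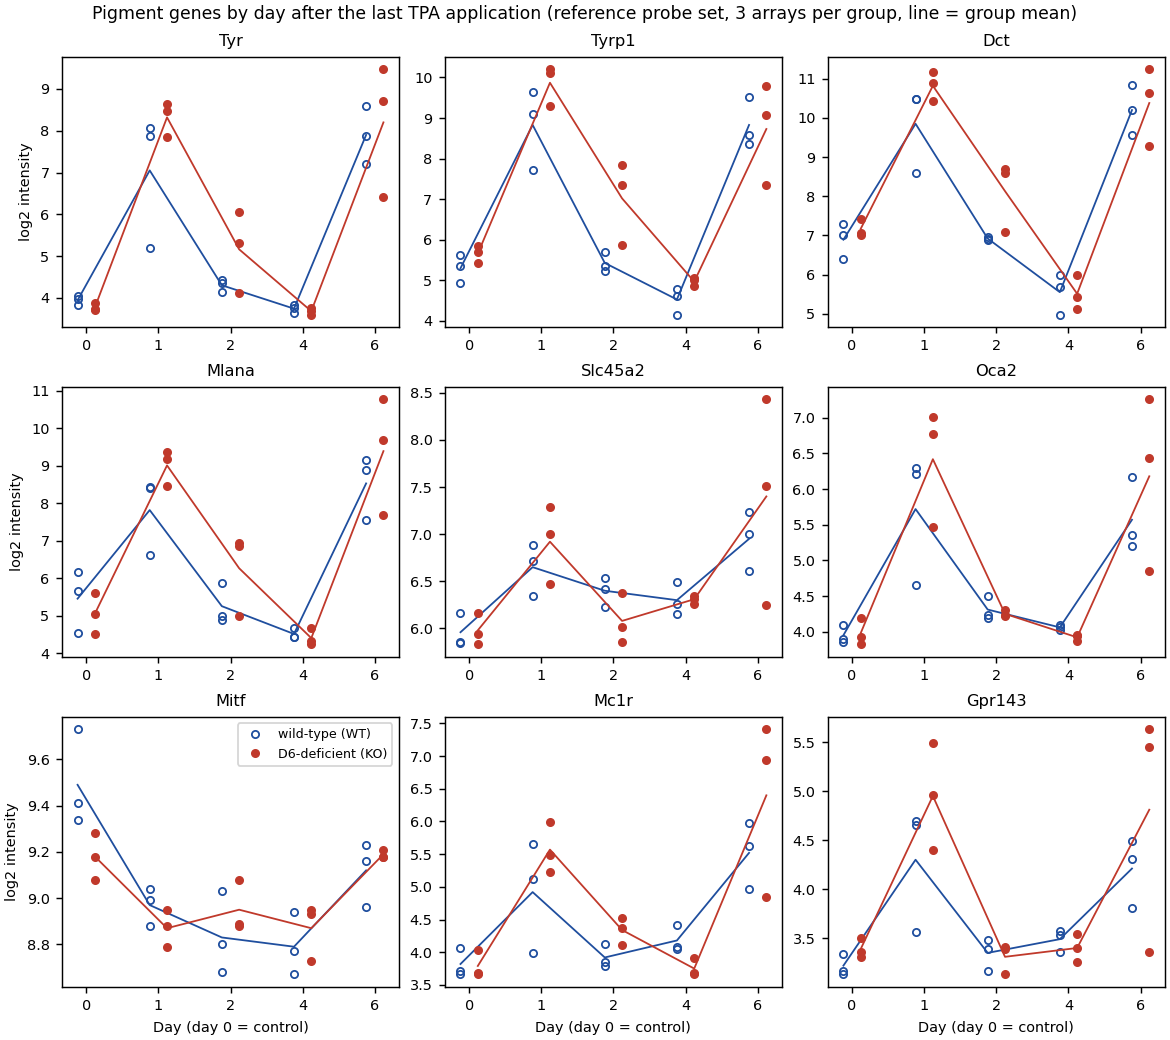
Log2 intensity of 9 pigment genes (reference probe set, that with the highest mean) by day in WT (open blue) and D6-deficient (filled red) skin. Points are arrays, 3 per group, and lines join group means. All genes but Mitf stood highest on days 1 and 6.

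Tyr, which encodes tyrosinase, read 3.96, 4.05 and 3.82 in the WT day 0 arrays and 7.88, 5.20 and 8.07 on day 1. On day 6 the WT arrays read 7.21, 8.60 and 7.88. Both sets lay wholly above day 0, with WT day 1 replicate 2 far below its group mates. Against day 0 the change was 3.11 ± 0.62 (log2, SE; 8.62-fold) on day 1 and 3.95 ± 0.62 (15.5-fold) on day 6, with adjusted p of 6.8e-04 and 8.8e-05 in limma. Without WT day 1 replicate 2 the day 1 change was 4.03.

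In D6-deficient skin Tyr read 3.71, 3.72 and 3.88 on day 0, 8.47, 8.65 and 7.84 on day 1, and 8.71, 9.47 and 6.41 on day 6. The day 1 and day 6 arrays were again all above day 0, and replicate 3 of day 6 was the low one. The changes were 4.55 ± 0.62 (23.5-fold, adjusted p 5.5e-06 in limma) and 4.43 ± 0.62 (21.5-fold, adjusted p 1.1e-05). The day 6 change was 5.32 without replicate 3 and 3.79 without replicate 2 of that group. The other tested Tyr probe set, 1448821_at, was dimmer and gave smaller changes in the same direction, 1.12 and 1.13 in WT skin and 1.87 and 1.59 in D6-deficient skin, all past the test.

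Tyrp1, which encodes an enzyme of the brown-black pigment branch, had 3 probe sets, which all rose on days 1 and 6 in both genotypes. At the reference probe set the WT arrays read 4.93, 5.62 and 5.35 on day 0, 9.11, 7.72 and 9.64 on day 1, and 8.37, 9.53 and 8.58 on day 6. The D6-deficient arrays read 5.84, 5.44 and 5.69 on day 0, 10.20, 10.11 and 9.30 on day 1, and 9.79, 9.07 and 7.34 on day 6. No array of day 1 or day 6 overlapped day 0 of its genotype. The changes were 3.52 ± 0.51 and 3.53 ± 0.51 in WT skin (both 11.5-fold, adjusted p 2.2e-05 and 4.1e-05 in limma), and 4.22 ± 0.51 and 3.07 ± 0.51 in D6-deficient skin (18.6-fold and 8.42-fold, adjusted p 1.3e-06 and 8.0e-05). Without D6-deficient day 6 replicate 3 the last of these was 3.77.

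Dct, which encodes dopachrome tautomerase, read 6.39, 7.28 and 7.01 in WT day 0 skin, 10.48, 8.59 and 10.49 on day 1, and 9.57, 10.83 and 10.20 on day 6. In D6-deficient skin it read 7.41, 7.07 and 7.02 on day 0, 11.17, 10.88 and 10.42 on day 1, and 11.24, 10.64 and 9.28 on day 6. The groups did not overlap with day 0. The changes were 2.96 and 3.31 in WT skin (SE 0.49, adjusted p 1.1e-04 and 5.2e-05 in limma) and 3.66 and 3.22 in D6-deficient skin (adjusted p 4.9e-06 and 3.2e-05). Without WT day 1 replicate 2 the WT day 1 change was 3.59.

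Among the melanosome genes, Mlana, a melanosome membrane protein known as a melanocyte antigen, changed most. Its WT arrays read 4.54, 5.67 and 6.18 on day 0, 8.44, 6.62 and 8.40 on day 1, and 7.56, 9.15 and 8.89 on day 6. Its D6-deficient arrays read 5.05, 4.52 and 5.60 on day 0, 9.36, 9.18 and 8.47 on day 1, and 9.69, 10.77 and 7.70 on day 6. Mlana varied more on day 0 than the enzymes did, but no day 1 or day 6 array fell within its range. The changes were 2.36 ± 0.63 and 3.07 ± 0.63 in WT skin, with adjusted p of 0.0076 and 0.0011 in limma, and 3.95 and 4.33 in D6-deficient skin, with adjusted p of 3.6e-05 and 1.7e-05. The WT day 1 change did not pass without WT day 0 replicate 1 (1.89, adjusted p 0.058) and was 2.96 without WT day 1 replicate 2. The D6-deficient day 6 change was 3.64 without replicate 2 of its group and 5.17 without replicate 3.

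Oca2, a melanosomal membrane protein needed for tyrosinase activity, rose by less. Its day 0 arrays lay between 3.82 and 4.19 over both genotypes. The WT arrays read 6.21, 4.65 and 6.29 on day 1 and 5.20, 6.17 and 5.35 on day 6, and the D6-deficient arrays 7.01, 6.77 and 5.47, and 7.26, 6.43 and 4.85. All 12 arrays of days 1 and 6, the lowest at 4.65, stood above all 18 arrays of days 0, 2 and 4, the highest at 4.50. The changes were 1.77 and 1.62 in WT skin, with adjusted p of 0.0045 and 0.0093 in limma, and 2.44 and 2.20 in D6-deficient skin, with adjusted p of 1.3e-04 and 5.1e-04 (SE 0.44). The WT day 6 change did not pass without WT day 6 replicate 2 (1.32, adjusted p 0.076), and the D6-deficient day 6 change was 2.87 without replicate 3 of its group.

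Gpr143, a receptor in the melanosome membrane, was dim throughout, between 3.13 and 5.63 on a scale whose lowest value was 2.26. It changed by 1.09 ± 0.38 on day 1 (adjusted p 0.039 in limma) and 0.99 ± 0.38 on day 6 (adjusted p 0.063) in WT skin. In D6-deficient skin it rose by 1.56 (adjusted p 0.0024) and 1.42 (adjusted p 0.0058), and 1 of its 3 day 6 arrays, at 3.36, lay within the day 0 range of 3.31 to 3.50. Without that array, replicate 3, the D6-deficient day 6 change was 2.15, and without replicate 2 it was 1.02 and did not pass (adjusted p 0.060). The WT day 1 call was lost on leaving out any of its 6 arrays but WT day 1 replicate 2, with adjusted p between 0.070 and 0.16.

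Slc45a2, a melanosome transporter, had a reference change of 0.69 ± 0.32 on day 1 in WT skin, which did not pass (adjusted p 0.12 in limma). It rose by 0.99 on day 6 in WT skin (adjusted p 0.025) and by 0.94 and 1.42 in D6-deficient skin (adjusted p 0.022 and 0.0014). Its WT day 6 call was lost without WT day 0 replicate 1 or 3 or WT day 6 replicate 2 or 3, and its D6-deficient day 1 call without D6-deficient day 0 replicate 1 or 3 or day 1 replicate 1 or 2, with adjusted p between 0.054 and 0.13. Its dimmer probe set, 1437430_at, passed only on day 6 in D6-deficient skin, at 1.39 ± 0.41 with arrays at 5.35, 7.08 and 3.94, the last of them below the day 0 arrays, and without that array the change was 2.14.

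Mc1r, the receptor for melanocyte-stimulating hormone, read 3.72, 4.07 and 3.67 in WT day 0 skin, 5.65, 3.99 and 5.12 on day 1, and 4.96, 5.62 and 5.97 on day 6. Only day 6 was wholly above day 0, with a change of 1.70 ± 0.43 (adjusted p 0.0057 in limma), and the day 1 change of 1.10 ± 0.43 did not pass (adjusted p 0.062). In D6-deficient skin it read 4.03, 3.68 and 3.66 on day 0, 5.99, 5.48 and 5.22 on day 1, and 6.94, 7.41 and 4.85 on day 6. Those changes were 1.78 (adjusted p 0.0020) and 2.61 (adjusted p 6.9e-05). Without WT day 1 replicate 2 the WT day 1 change passed, at 1.57 (adjusted p 0.012), and without D6-deficient day 6 replicate 3 the day 6 change there was 3.38. At the other Mc1r probe set the D6-deficient changes of 0.87 and 1.37 passed and the WT changes of 0.49 and 0.57 did not.

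**Figure D3:**
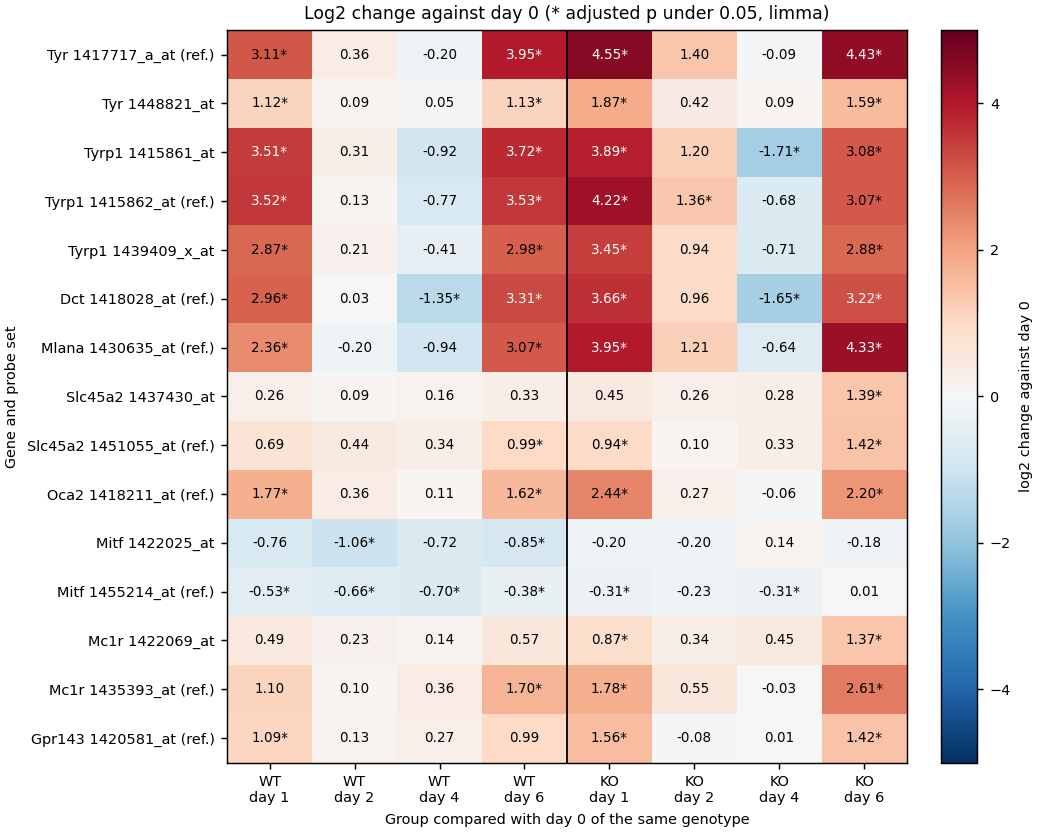
Log2 change against day 0 of the same genotype for the 15 tested member probe sets (rows) on each day (columns), with red for higher and blue for lower. An asterisk marks an adjusted p under 0.05 in limma. Days 1 and 6 are red in both genotypes for the enzymes and Mlana, and the Mitf rows are pale to blue in most columns.

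Mitf, the transcription factor that activates the enzyme genes, lay below or near its day 0 level on every later day. Its reference probe set read 9.41, 9.34 and 9.73 in WT day 0 skin and then 8.88, 9.04 and 8.99 on day 1, 8.80, 8.68 and 9.03 on day 2, 8.94, 8.77 and 8.67 on day 4, and 9.23, 8.96 and 9.16 on day 6. Every later WT array was below every WT day 0 array. The falls were -0.53, -0.66, -0.70 and -0.38 (SE 0.11), with adjusted p of 0.0013, 1.1e-04, 2.4e-05 and 0.017 in limma. The last of these was not past the test without WT day 0 replicate 3 or WT day 6 replicate 2 (-0.26 and -0.30, both adjusted p 0.12). From day 4 to day 6, when the enzymes rose, the reference probe set of Mitf rose by 0.33 ± 0.11 in WT skin (adjusted p 0.037 in limma). In D6-deficient skin it rose by 0.32 ± 0.11 (adjusted p 0.032). The WT call was lost without WT day 4 replicate 2 or 3 or WT day 6 replicate 1 or 3 (adjusted p 0.084 to 0.17). The D6-deficient call was lost without day 4 replicate 1 or any single day 6 array (adjusted p 0.054 to 0.14). At the other Mitf probe set the changes were -0.13 and -0.32, which did not pass (adjusted p 0.79 and 0.42).

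In D6-deficient skin Mitf read 9.18, 9.08 and 9.28 on day 0, and it fell by 0.31 on days 1 and 4 (adjusted p 0.033 and 0.028 in limma). Both calls were lost without D6-deficient day 0 replicate 1 or 3, the first also without day 1 replicate 1 or 2 and the second without day 4 replicate 1, with adjusted p between 0.059 and 0.13. The changes of -0.23 on day 2 and 0.01 on day 6 did not pass (adjusted p 0.11 and 0.97). None of the tests of whether the genotypes' Mitf changes differed passed, and the nearest, for day 2, gave 0.43 ± 0.16 with an adjusted p of 0.13. The other Mitf probe set fell past the test in WT skin on days 2 and 6, by -1.06 and -0.85, and its D6-deficient day 0 arrays were widely spread, at 7.21, 6.05 and 7.69. Mitf has several promoters and is expressed in other skin cells as well as melanocytes, and which of its transcripts these probe sets measure is not given in the sources used here. Markers of skeletal muscle, 4 of 4, fell on every day in both genotypes, from a mean of 13.62 to 14.00 in the day 0 arrays to between 11.48 and 13.16 later, and their part in the Mitf result was not tested. Among all tested probe sets 11.9% to 22.4% fell on the later days, except that 26.1% on WT day 2 and 31.7% on D6-deficient day 6 are shares in either direction.

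On day 2 no member differed past the test between the genotypes in limma. The arrays of the genotypes did not overlap at the reference probe sets of Tyrp1 and Dct, and overlapped at those of the other 7 measured members. The share of all tested probe sets without such overlap was not computed, so this count is not read as a result. In WT skin no member probe set rose and 2 fell, both of Mitf, where 26.1% of all tested probe sets passed in either direction. In D6-deficient skin 1 of 15 rose (17.5% of all) and none fell (20.6% of all): the reference probe set of Tyrp1, by 1.36 ± 0.51 (adjusted p 0.036 in limma), a call lost on leaving out any of its 6 arrays but D6-deficient day 2 replicate 1 (adjusted p 0.056 to 0.21). The 3 D6-deficient arrays of day 2 were unlike each other. Tyrp1 read 5.86, 7.85 and 7.36 in them against 5.70, 5.36 and 5.24 in WT skin of that day, and Dct read 7.08, 8.60 and 8.70 against 6.96, 6.89 and 6.92.

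Replicates 2 and 3 of D6-deficient day 2 thus stood above every day 0 array in Tyrp1 and Dct, and replicate 1 of Dct lay within the day 0 range. The same 2 arrays read high in Tyr, at 6.06 and 5.32 with 4.11 in replicate 1, and in Mlana, at 6.95 and 6.86 with 4.99 in replicate 1. With replicate 1 left out, which was the lowest of its group in these genes, 6 of 15 probe sets rose against day 0 (16.4% of all tested in that fit), namely the reference probe sets of Tyr, Dct and Mlana and all 3 of Tyrp1. With replicate 2 or replicate 3 left out, none did. The direct difference between genotypes on day 2 was 1.59 for Tyrp1 (95% interval 0.54 to 2.64, adjusted p 0.080 in limma) and 1.21 for Dct (0.19 to 2.22, adjusted p 0.20). Without replicate 1 of D6-deficient day 2 these differences were 2.17 (adjusted p 0.014) and 1.73 (adjusted p 0.053), where 2.36% of all tested probe sets were higher. That array was the lowest of its group in these genes, so the larger values without it follow from the choice of array. Mast cell markers also stood highest by group mean in D6-deficient day 2 skin, where 4 of 5 rose (17.5% of all tested). Their mean read 9.89, 10.30 and 9.94 in its arrays against 9.47 to 9.75 on day 0 of that genotype. Arrays of other groups overlapped these, with 10.05 in D6-deficient day 6 replicate 3 and 9.94 in WT day 6 replicate 1. Of 4 macrophage markers 2 rose on D6-deficient day 2, and their mean read 11.06, 11.10 and 11.14 against 10.18 to 10.37 on day 0 of that genotype and no more than 10.89 in any array of another group. The part of both marker lists in these results was not tested.

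On day 4 Dct fell below its day 0 level in both genotypes, and 1 of 3 Tyrp1 probe sets did so in D6-deficient skin. Dct read 5.68, 5.98 and 4.98 in WT and 5.98, 5.43 and 5.13 in D6-deficient skin, all below the day 0 arrays of their genotype. It fell by -1.35 ± 0.49 (2.54-fold, adjusted p 0.032 in limma) and -1.65 ± 0.49 (3.15-fold, adjusted p 0.0086). The WT call was lost without WT day 0 replicate 2 or 3 or WT day 4 replicate 1 or 3 (adjusted p 0.054 to 0.15). Tyrp1 at probe set 1415861_at fell by -1.71 in D6-deficient skin (adjusted p 0.015), while its WT change of -0.92 did not pass (adjusted p 0.20). The reference probe set of Tyrp1 and the third gave -0.68 and -0.71 in D6-deficient skin, which did not pass (adjusted p 0.30 and 0.23). Counting all members, 2 of 15 fell in WT skin (21.8% of all tested) and none rose (17.3% of all), and 3 fell in D6-deficient skin (22.4% of all) and none rose (18.8% of all), so these shares were not above those of all probe sets. Keratinocyte markers were low on the same day: of 4, 2 fell and 1 rose in WT skin and 3 fell in D6-deficient skin, with a mean that went from 12.55 on day 0 to 11.18 on day 4 and 13.27 on day 6 in WT skin, and from 13.14 to 10.33 and 13.21 in D6-deficient skin. Their part in the day 4 falls and the rise to day 6 was not tested.

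The same rise and fall stood between consecutive days. From day 1 to day 2, 6 of 15 member probe sets fell in WT skin and none rose (0.566% and 0.633% of all tested), and 9 fell in D6-deficient skin and none rose (5.24% and 5.18% of all). From day 2 to day 4, none passed in WT skin in limma (7.16% of all rose and 7.39% fell), nor by the methods' t-test after Benjamini-Hochberg adjustment, with 2 of 15 at an unadjusted p under 0.05 in limma (26.3% of all), and 5 fell in D6-deficient skin (8.54% of all fell and 7.76% rose). From day 4 to day 6, 9 rose in WT skin and none fell, where 22.1% of all passed in either direction, and 14 rose in D6-deficient skin (16.8% of all) and none fell (14.5% of all). Dct gave the widest of these steps at a reference probe set in WT skin, 4.65 ± 0.49 or 25.2-fold, and Mlana in D6-deficient skin, 4.97 ± 0.63 or 31.4-fold (4.28 without replicate 2 of D6-deficient day 6 and 5.81 without replicate 3).

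Ordered by group mean, Tyr stood highest in D6-deficient day 1 skin, at 8.32 ± 0.42 (SD, n = 3), followed by D6-deficient day 6 (8.20 ± 1.59), WT day 6 (7.90 ± 0.69), WT day 1 (7.05 ± 1.61) and D6-deficient day 2 (5.16 ± 0.98). The arrays of each of these groups overlapped those of the next, so their order was not separated beyond the spread. WT day 2 (4.30 ± 0.16) lay above WT day 0 (3.94 ± 0.12) without overlap, and the last 4 groups, down to D6-deficient day 4 (3.68 ± 0.08), overlapped with their neighbours. In all members but Mitf the top 4 groups were those of days 1 and 6. For Mitf the highest group was WT day 0, at 9.49 ± 0.21, which did not overlap with the next, D6-deficient day 6, at 9.19 ± 0.02, and the lowest was WT day 4, at 8.79 ± 0.13.

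The days of high pigment genes were those of high hair follicle genes. Krt27, a keratin of the inner root sheath of the growing hair, lay between 8.43 and 13.42 in the 12 arrays of days 1 and 6 and between 4.51 and 5.38 in the 18 others. Shh, the hedgehog ligand made by the hair matrix, lay between 7.46 and 10.57 in the former and between 4.80 and 5.91 in the latter. Of 21 tested hair shaft and root sheath genes, 13 rose on day 1 and 16 on day 6 in WT skin, and 15 and 20 in D6-deficient skin, with none lower. Of all tested probe sets, 11.4% and 10.2% rose on those days in WT skin. In D6-deficient skin 18.2% of all rose on day 1, and 31.7% passed in either direction on day 6. On days 2 and 4, 1 and 1 rose in WT skin and 1 and 2 in D6-deficient skin. Of all, 26.1% passed in either direction on WT day 2, and 17.3% rose on WT day 4. In D6-deficient skin 17.5% and 18.8% of all rose on days 2 and 4.

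The arrays lowest in pigment genes on these days were also low in hair genes. WT day 1 replicate 2 had Krt27 at 8.43, against 11.24 and 10.80 in its group mates, and D6-deficient day 6 replicate 3 had Krt27 at 10.59, against 11.74 and 13.42. On D6-deficient day 2 the pattern parted: Krt27 read 5.28, 5.14 and 5.14 in its 3 arrays, Shh read 5.32, 5.67 and 5.54, and neither was raised in the 2 arrays with high Tyrp1 and Dct.

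**Figure D4:**
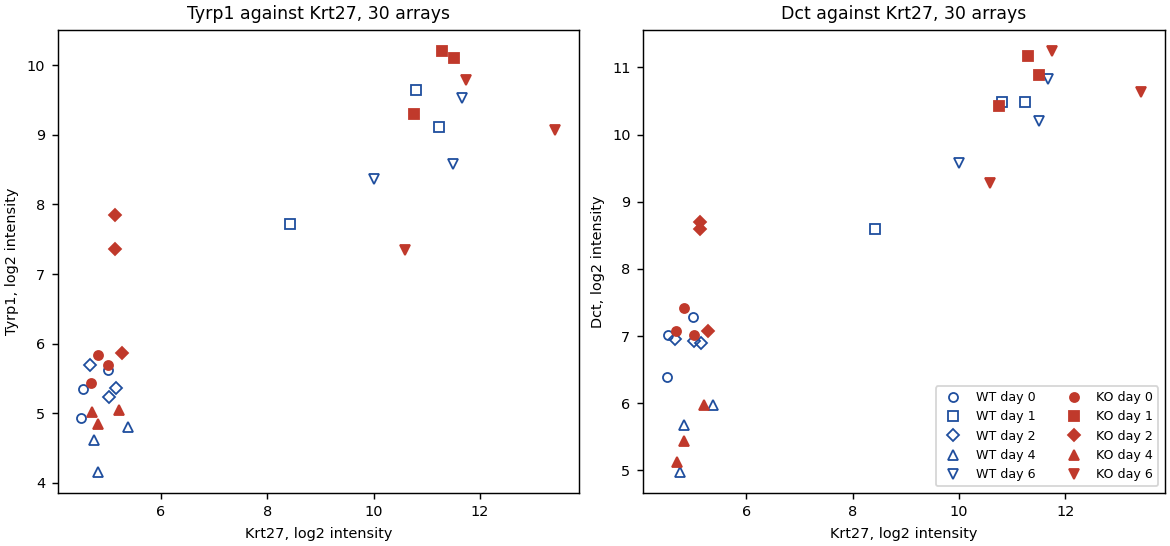
Tyrp1 (left) and Dct (right) against Krt27 in each of the 30 arrays, all in log2 intensity, with WT open and D6-deficient filled and a symbol for each day. Days 1 and 6 sit to the right, with Krt27 at 8.43 or more, and the 2 red diamonds that stand above the left-hand group are D6-deficient day 2 replicates 2 and 3.

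Hair matrix regulators moved in the same way on days 1 and 6. The shares of all tested probe sets that rose were 11.4% and 10.2% in WT skin and 18.2% on D6-deficient day 1, with 31.7% passing in either direction on D6-deficient day 6. Of 11 hair matrix genes 6 rose on day 1 and 7 on day 6 in WT skin and 8 on each in D6-deficient skin. Among them were Shh, by 3.60, 3.97, 4.54 and 4.23 in WT day 1, WT day 6, D6-deficient day 1 and D6-deficient day 6, and Msx2, a homeobox factor of the hair matrix, by 2.66, 3.30, 3.50 and 3.94. None rose on days 2 and 4, where 17.3% of all rose on WT day 4 and 17.5% and 18.8% on D6-deficient days 2 and 4, and 26.1% passed in either direction on WT day 2. Gata3, a factor of the inner root sheath and epidermis, fell by 1.73 on day 2 in D6-deficient skin, and by 1.38 and 2.78 on day 4 in WT and D6-deficient skin.

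Of 9 genes of the melanocyte lineage and melanosome matrix, few followed the enzymes. Pmel (array symbol Si), the protein of the fibrils on which melanin is laid, rose by 3.21 and 3.60 in WT and 4.38 and 4.03 in D6-deficient skin on days 1 and 6 (SE 0.48), and by 1.40 on day 2 in D6-deficient skin (adjusted p 0.025 in limma), where its arrays read 6.58, 8.20 and 7.83. Trpm1, a melanocyte channel gene also known as melastatin, rose by 2.12 on day 6 in WT skin and by 2.11 and 2.93 on days 1 and 6 in D6-deficient skin. In all, 2 of the 9 rose on day 1 and 3 on day 6 in each genotype. Of all tested probe sets, 11.4% and 10.2% rose on those days in WT skin. In D6-deficient skin 18.2% of all rose on day 1, and 31.7% passed in either direction on day 6. With 9 genes these counts are not read as a result about the list.

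At its reference probe set the lineage factor Sox10 did not rise on any day. It fell by 0.63 and 0.50 on days 2 and 4 in WT skin and by 0.68, 0.72 and 0.37 on days 2, 4 and 6 in D6-deficient skin (SE 0.12). Sox10 is also a Schwann cell gene, and of 5 Schwann cell markers, Sox10 among them, 2 to 4 fell on each day in WT skin and 3 to 5 in D6-deficient skin, with none higher. Among all tested probe sets 11.9% to 22.4% fell on those days, except that 26.1% on WT day 2 and 31.7% on D6-deficient day 6 are shares in either direction. The mean level of those 5 markers lay between 8.31 and 8.68 in the WT day 0 arrays and between 7.36 and 8.12 in the later WT arrays, and between 8.59 and 8.84 and between 7.08 and 7.83 in the D6-deficient arrays. Their part in the Sox10 result was not tested.

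Kit, the stem cell factor receptor of melanocytes and mast cells, passed at its reference probe set only on day 4 in WT skin, where it fell by 0.63 (adjusted p 0.0024 in limma). Mast cell markers, 5 genes with Kit included, passed in 1 case on that day in WT skin, which was Kit itself, where 21.8% of all tested probe sets fell and 17.3% rose. On day 2 in D6-deficient skin 4 of them rose (17.5% of all). Gpnmb, a melanosome glycoprotein that macrophages also express, fell by 1.98 and 1.82 on day 4 in WT and D6-deficient skin. On day 4, 3 of 4 macrophage markers fell in each genotype, Gpnmb among them (21.8% and 22.4% of all fell), and Cd68 rose by 1.23 and 1.49.

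**Figure D5:**
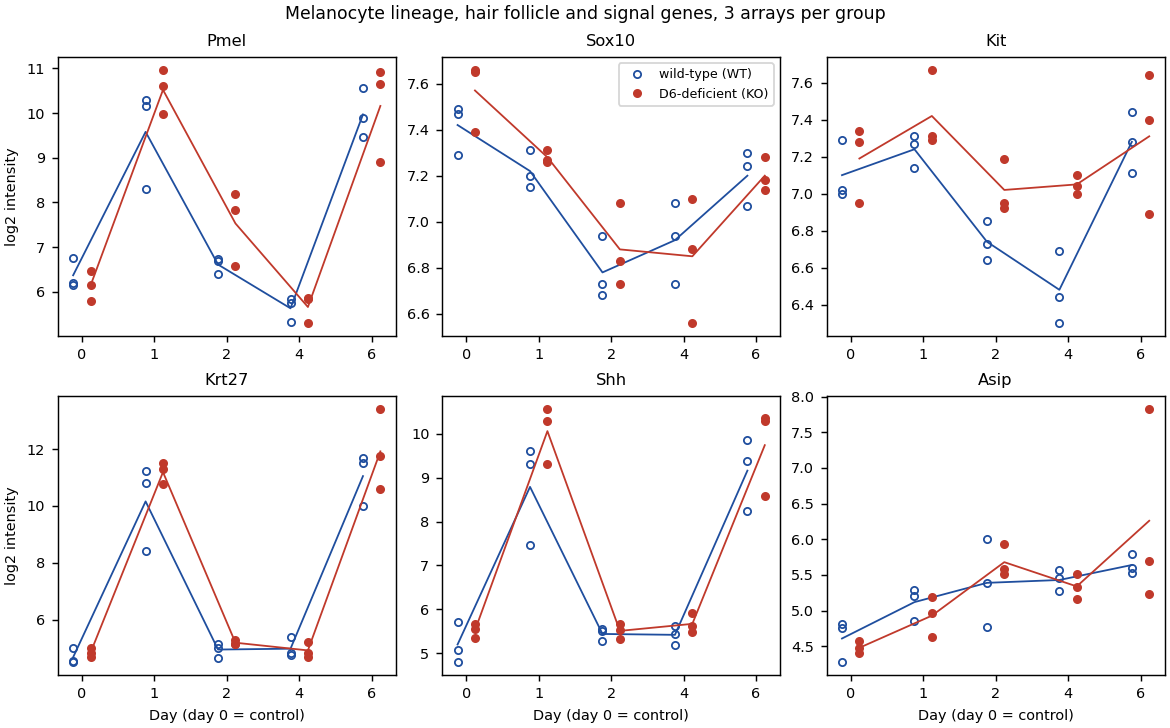
Log2 intensity of Pmel, Sox10, Kit, Krt27, Shh and Asip by day, drawn as for the pigment genes, with 3 arrays per group. Pmel, Krt27 and Shh peak on days 1 and 6, whereas Sox10 is highest on day 0 in both genotypes.

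Of 7 measured signals to melanocytes, none passed on days 1 and 2 in WT skin. Of all tested probe sets 11.4% rose and 12.7% fell on WT day 1, and 26.1% passed in either direction on WT day 2. With 7 genes this count is not read as a result about them. Asip (array symbol a), the agouti antagonist of MC1R that switches pigment to yellow, rose by 1.20 on day 2 and 1.77 on day 6 in D6-deficient skin (adjusted p 0.016 and 0.0011 in limma). Its day 6 arrays there read 5.70, 7.83 and 5.24, so a single array lay far above the others, and in WT skin the day 6 change of 1.03 did not pass (adjusted p 0.058). Corin, a protease of the dermal papilla that modifies agouti signalling, rose by 1.51 on day 6 in WT skin and by 2.33 and 1.98 on days 1 and 6 in D6-deficient skin. Edn1, endothelin-1, rose on day 4 by 0.48 and 0.98 in the WT and D6-deficient groups, and by 0.40 on day 6 in the latter. At their reference probe sets Pomc, the precursor of melanocyte-stimulating hormone, passed on no day, with changes between 0.01 and 0.21, and Kitl, the ligand of KIT, passed on day 4 in WT skin alone, at -0.36.

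Genes of melanosome transport and assembly were counted beside all tested probe sets. Of 4 transport genes, 2 rose on day 4 in each genotype, where 17.3% and 18.8% of all rose in WT and D6-deficient skin. They were Rab27a, by 0.89 and 0.72, and Myo5a, the motor that carries melanosomes, by 0.67 and 0.68. Myo5a also fell by 0.52 on day 1 in WT skin and rose by 0.76 on day 2 in D6-deficient skin. Of 14 assembly genes, no more than 2 rose and no more than 3 fell on any day. Among all tested probe sets 10.2% rose and 11.9% fell on WT day 6, and 18.8% and 22.4% on D6-deficient day 4. The assembly counts are therefore not read as a result about these genes. The exception in size was Slc7a11, the cystine transporter that supplies the yellow pigment pathway, which rose by 3.07 and 3.10 on days 2 and 4 in WT skin and by 4.12 and 3.51 in D6-deficient skin. On day 1 its changes were 0.84 in WT skin, which did not pass (adjusted p 0.070 in limma), and 0.92 in D6-deficient skin, which did (adjusted p 0.035), and the difference between them was 0.07 ± 0.47 (adjusted p 0.98). On day 6 its changes of 0.54 and 0.65 did not pass.

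The genes most like the members' mean pattern were found over all 30 arrays among genes outside the set. They were Ptgds (prostaglandin D synthase; r 0.99), Pmel (0.99), Slc39a10 (a zinc transporter; 0.98), Mycl1 (0.98), Wif1 (a secreted Wnt inhibitor; 0.97), Gli1 (a hedgehog pathway factor; 0.97), Prss35 (0.97), Mycn (0.97), Hhip (a hedgehog-binding protein; 0.97) and Col11a1 (a collagen; 0.97). The 12 arrays of days 1 and 6 stand apart from the others, which raises such values, and over deviations from the group means the 10 gave r between 0.85 (Col11a1) and 0.96 (Ptgds). The 10 were picked on the same arrays, so the latter values are no separate test. A few arrays deviated widely. The members' pattern, in log2 from its mean, was -0.04 in WT day 1 replicate 2 (group mates 1.34 and 1.38) and 0.35 in D6-deficient day 6 replicate 3 (2.19 and 2.33). All points share the same arrays and normalization. The members themselves gave r from 0.82 (Slc45a2) to 0.99 (Tyr), with Mitf apart at 0.04. Each member is part of the mean it was compared with, which raises its r, so these values cannot be set beside those of the genes outside the set.

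Direct comparison of the genotypes gave no member past the test on any day, in the change to any day, or over all days (limma). At an unadjusted p under 0.05, 1, 2, 3, 0 and 2 of 15 passed on days 0, 1, 2, 4 and 6, 0, 2, 2 and 2 in the changes to days 1, 2, 4 and 6, and 3 over all days. Of all tested probe sets 8.01% to 15.5% did so on single days, 8.01% to 16.9% in the changes and 18.7% over all days, so the members' shares were near the background. The methods' t-test after Benjamini-Hochberg adjustment passed none on single days or in the changes, and the share of all tested probe sets passing it was not computed. After adjustment in limma, among all tested probe sets 0.713%, 0.0194%, 2.46%, 0.289% and 0.0250% were higher in D6-deficient skin on those days, and 0.855%, 0.0361%, 1.99%, 0.225% and 0.0999% lower. In the changes 0.00278%, 2.78%, 0.192% and 0.0139% of all passed upward and 0.0167%, 2.62%, 0.416% and 0.0111% downward, and over all days 2.29% and 3.23%. The difference for Tyr was 1.27 on day 1 (95% interval 0.00 to 2.54) and 0.30 on day 6 (-0.97 to 1.57), and for Tyrp1 it was 1.05 (0.00 to 2.10) and -0.09 (-1.14 to 0.96), so differences of 2-fold and more lay within these intervals.

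A single array bore on this. Without replicate 3 of D6-deficient day 6, the lowest of its group in Tyr, Tyrp1, Dct and Mlana, 5 of 15 probe sets were higher in D6-deficient than WT skin on day 6 (1.10% of all tested in that fit): both of Mc1r, both of Slc45a2 and that of Gpr143, by 1.02 to 1.74, with adjusted p between 0.0034 and 0.034. Without it 5 also passed over all days (4.70% of all higher). That array was also the lowest of its group in Krt27 and at the 5 probe sets named. The higher values without it thus follow from the choice of array, and with all arrays none of these probe sets passed.

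The arrays fell into 2 sets by the signal of the spiked hybridization controls, 17 and 13 in number, which crossed the groups except D6-deficient day 6, where all 3 arrays were in the brighter set. Within each set the changes against day 0 of Tyr, Tyrp1, Dct and Mlana on days 1 and 6 ran from 1.33 to 4.85, all upward. Each rested on few arrays, such as 1 against 1 of day 0 for WT day 6 in the dimmer set and 3 against 1 for D6-deficient day 6, which had no value in the dimmer set. With the set as a covariate no count of member probe sets given here moved by over 1.5 times. Array medians lay between 5.64 and 5.80 in log2 intensity.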

How the data were processed

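Total RNA of ground whole back skin was hybridized to Affymetrix mouse genome expression arrays, 1 mouse to an array. The deposited values are intensities on a linear scale that the authors made from the arrays with RMA in GeneSpring GX, a background correction, quantile normalization and probe set summary. No detection calls were used here. The number of arrays limits the precision.

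From these, log2 was taken, 64 control probe sets were left out, and the lowest 20% of probe sets by mean (below 3.725) were removed. limma 3.58.1 in R 4.3.3 was fitted with a mean for each of the 10 groups over all 30 arrays, and p-values were adjusted by Benjamini-Hochberg over the 36029 probe sets left. A probe set was past the test at an adjusted p under 0.05. The methods' t-test was run on the same values as an alternative, with p under 0.05 and a change over 3-fold. With 3 arrays against 3 an exact permutation test cannot go below 0.1. The labels call the arrays biological replicates. The limma p-values rest on the spread between mice pooled over all 10 groups, not on that of the groups compared alone. For Tyr the group SD ran from 0.08 (D6-deficient day 4) to 1.61 (WT day 1), while the SE was 0.62 on WT days 1 and 4 alike. The fit was tested on simulated data, with 1 spread per probe set for all groups and changes placed in random probe sets. For WT day 6 against day 0 it recovered 82% of changes of 1 and 97% of changes of 2 on the log2 scale among 36029 probe sets, with 10 false calls. The spread of the members differed between groups, so these percentages need not hold for them. No pair of arrays was a duplicate, the closest differing by a median of 0.138. Same-numbered arrays did not deviate together (median correlation -0.01 over 135 pairs), so numbers did not pair arrays.

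The members and the gene lists were chosen with earlier results of these data known. Named were all members, at the probe set with the highest mean (the reference) and the others where they differed, up to 4 genes of each other list with the largest change past the test, Pmel, Sox10, Kit, Asip and Krt27 always, and the 10 genes outside the set nearest to the members' mean pattern by Pearson r. Pomc, Kitl, Cd68, Rab27a and Edn1 were added after their values were seen. Genes of the other lists are given at the reference probe set alone, also those with further tested probe sets, such as Sox10, Kit, Kitl and Pomc. Promoter sequences are from RefSeq (GRCm38.p6), and arrays carry older symbols for some genes. Alternatives were the filter, centring of arrays, only the arrays of a comparison, averaging of probe sets, a trended and robust fit, the array set and the replicate number as terms, the t-test, and leaving out each array.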

Additional observations from a re-analysis of the deposited data

Results flagged for a closer look

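The Tyr probe set that the filter on low signal left out, 1456095_at, entered no test but carried a signal above the control arrays. All 3 of its arrays lay above those of day 0 of the same genotype in 5 groups. Its difference from day 0 in group means, on the log2 scale, was 1.09 on day 1 and 1.0 on day 6 in WT skin, and 1.93, 0.54 and 2.02 on days 1, 2 and 6 in D6-deficient skin. It read 3.25, 3.89 and 3.41 on day 2 in D6-deficient skin, against 3.03, 3.10 and 2.79 on day 0. These differences were not tested.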

How the results depend on the processing

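Counts of member probe sets past the test kept within 1.5 times of those reported without the filter, with arrays centred on their medians, with the array set as a term, and with a trended and robust fit. The replicate number as a block moved no call count either (10 of 15 on WT day 1, 12 on WT day 6, 13 on D6-deficient days 1 and 6, all against day 0). Requiring more than 3-fold as well left 0 on WT days 2 and 4 and D6-deficient day 2, and 8 from day 4 to day 6 in D6-deficient skin. Fitting only the arrays compared gave 4 on WT day 4, 4, 5 and 8 on D6-deficient days 2, 4 and 6, 2 and 5 for WT day 2 against 1 and day 4 against 2, and 8 for D6-deficient day 6 against 4. Averaging the probe sets of a gene, which leaves 9 to count in place of 15, gave 1 and 7 on WT days 2 and 6, 7, 0, 1 and 8 on D6-deficient days 1, 2, 4 and 6, 5 for WT day 6 against 4, and 3 and 8 for D6-deficient day 4 against 2 and day 6 against 4. There Mitf changed by 0.0 from day 4 to day 6 in D6-deficient skin (adjusted p 0.99 in limma), in place of 0.32. The methods' t-test after Benjamini-Hochberg adjustment, which estimates the spread of each probe set from 6 arrays alone, passed 1 on WT day 1, which was lower, 1 and 0 on WT days 2 and 6, 0 and 0 on D6-deficient days 2 and 6, 0 and 0 from day 1 to day 2 in WT and D6-deficient skin, and 1 and 1 for D6-deficient day 4 against 2 and day 6 against 4. At the methods' own threshold, with no adjustment, it gave 7 and 8 on WT days 1 and 6 and 9 and 8 on D6-deficient days 1 and 6, all higher. The share of all tested probe sets was not computed for the t-test, for averaged probe sets or for the fits on only the arrays compared. Those counts are therefore not read as results about the members, nor are those on leaving out 1 array where no share is given above. Leaving out 1 array at a time gave 7 to 11, 2 to 2, 1 to 2 and 7 to 11 on WT days 1, 2, 4 and 6, and 10 to 14, 0 to 6, 2 to 3 and 11 to 13 on those days in D6-deficient skin, with 1 probe set lower on D6-deficient day 2 without replicate 2 of D6-deficient day 0. Between consecutive days it gave 3 to 7, 0 to 0 and 7 to 9 in WT and 7 to 9, 2 to 6 and 8 to 13 in D6-deficient skin. Between genotypes it gave 0 to 2 on day 2, 0 to 5 on day 6, 0 to 1 for the change to day 6, 0 to 5 over all days and 0 otherwise. Of the single-gene values recomputed, 792 stayed past the test on the same side. A further 145 kept their side but no longer passed, and 1, that of Mitf above, changed side. Over all days the restricted fit uses the same arrays and the t-test was not run.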
